A study of Mus musculus with 5 samples.

Results

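Molecular chaperones, the proteins that fold other proteins or keep them from clumping, were followed through their transcripts in mouse CD8+ T cells before and during stimulation. The set was chosen by gene symbol: the CCT subunits (Tcp1 and symbols starting with Cct2 to Cct8), the HSP70, HSP110, HSP60, HSP10 and small heat shock genes (symbols starting with Hspa, Hsph, Hspd, Hspe and Hspb), and the DnaJ genes (Dnaja, Dnajb and Dnajc followed by a digit). Of the 13911 genes measured, 69 matched. By known site and role they comprise 8 subunits of the CCT ring, 8 cytosolic HSP70 and HSP110 genes, 23 cytosolic or nuclear DnaJ genes, 13 genes of the endoplasmic reticulum (ER), 10 mitochondrial genes and 4 small heat shock genes. The other 3 matched by symbol only: Hspb11 encodes a subunit of the ciliary transport complex, Hspbp1 a nucleotide exchange factor of HSP70, and Hspbap1 a protein that binds a small heat shock protein. Cct6a was not analysed here, and the HSP90 genes, which the symbols do not cover, are given further down among the partner genes.

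Single-cell RNA was measured on the 10x Genomics platform in sorted OT-I CD8+ T cells from spleen and lymph nodes. All of them carry the transgene of the strain C57BL/6-Tg(TcraTcrb)1100Mjb/J, a T cell receptor that recognises the ovalbumin peptide SIINFEKL. The 5 groups were cells before culture (0 h), cells co-cultured for 24 h or 72 h with peptide-pulsed dendritic cells (DCs) and myeloid-derived suppressor cells (MDSCs), and cells co-cultured for 24 h or 72 h with the DCs alone. MDSCs, immature cells of the myeloid lineage, are known as brakes on T cell activation. Animal age, the number of animals and the origin of the MDSCs are not given in the sources used here. No library was cultured without peptide-pulsed DCs, so stimulation and time in culture cannot be told apart. Each group was 1 library, which means that the ratios compare single libraries and that neither a replicate check nor a test was possible.

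The chaperone systems work in sequence. Cytosolic HSP70 proteins hold unfolded chains while DnaJ partners deliver the chains and trigger ATP use, and HSP110 proteins reset HSP70 for a further round. The CCT ring (TRiC) encloses actin, tubulin and other proteins in its chamber, the ER has its own HSP70 (BiP, from Hspa5), and mitochondria pull proteins in with mortalin (from Hspa9) and fold them in a barrel of HSP60 (from Hspd1) capped by HSP10 (from Hspe1). T cells enlarge and multiply after activation, which calls for much new protein, and the factor HSF1, known from the heat shock response, binds repeats of the letters TTC and GAA at many chaperone genes.

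Promoters, from 250 bases before to 50 bases after the annotated start, were matched for 57 of the 69 genes (RefSeq sequences, GRCm38.p6). The promoters of 4 genes whose values stand out below are shown, 5′ to 3′ on the gene's strand, with matches to a heat shock or ER stress motif in capitals. Hspe1 and Hspd1 lie head to head on chromosome 1, so the window of Hspe1 (chr1:55087898-55088197, plus strand) overlaps that of Hspd1 (chr1:55087883-55088182, minus strand). The window of Hsph1 is chr5:149636287-149636586 (minus strand), that of Hspa5 chr2:34771840-34772139 (plus strand) and that of Hspa1a chr17:34972107-34972406 (minus strand).
Hspe1: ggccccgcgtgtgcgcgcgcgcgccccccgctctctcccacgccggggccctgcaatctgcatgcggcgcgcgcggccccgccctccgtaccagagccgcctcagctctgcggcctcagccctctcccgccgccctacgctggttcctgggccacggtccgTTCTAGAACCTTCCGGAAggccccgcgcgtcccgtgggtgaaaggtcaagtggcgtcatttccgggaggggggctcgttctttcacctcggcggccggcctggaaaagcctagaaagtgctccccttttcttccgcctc
Hsph1: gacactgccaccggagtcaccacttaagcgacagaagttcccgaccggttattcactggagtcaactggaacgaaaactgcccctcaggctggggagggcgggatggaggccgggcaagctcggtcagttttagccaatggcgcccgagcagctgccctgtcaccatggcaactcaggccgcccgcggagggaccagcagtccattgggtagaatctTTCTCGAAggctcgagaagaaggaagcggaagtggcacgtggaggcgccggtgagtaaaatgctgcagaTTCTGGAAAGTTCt
Hspa5: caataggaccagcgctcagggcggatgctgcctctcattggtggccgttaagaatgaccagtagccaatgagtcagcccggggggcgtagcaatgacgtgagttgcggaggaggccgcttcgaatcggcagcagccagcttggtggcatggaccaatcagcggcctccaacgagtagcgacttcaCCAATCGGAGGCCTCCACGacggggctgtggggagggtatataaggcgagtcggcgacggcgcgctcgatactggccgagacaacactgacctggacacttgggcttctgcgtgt
Hspa1a: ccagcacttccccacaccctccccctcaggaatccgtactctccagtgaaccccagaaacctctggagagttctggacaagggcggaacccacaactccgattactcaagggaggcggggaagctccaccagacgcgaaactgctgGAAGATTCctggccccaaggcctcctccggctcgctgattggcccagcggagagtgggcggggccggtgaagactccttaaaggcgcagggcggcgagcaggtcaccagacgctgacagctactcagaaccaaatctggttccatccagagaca

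The capital run of Hspe1, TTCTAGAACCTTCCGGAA, starts at position -89 from its start, and the same letters read on the other strand, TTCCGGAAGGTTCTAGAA, start at position -144 of Hspd1. Hsph1 has TTCTCGAA at position -33 and TTCTGGAAAGTTC at position 36, Hspa5 has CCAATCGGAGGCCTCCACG at position -65, and Hspa1a has GAAGATTC at position -104. Hspd1 and Hsph1 each have 2 listed promoters, and their positions refer to the start of the window given above. Both strands were searched for 5 motifs. A chaperone gene counted where any of its promoters matched, whereas the share of all is of single distinct promoter sequences, so the units differ. TTCNNGAA was found in 7 of the 57 chaperone genes and in 8.55% of all 32544 promoters, and GAANNTTC in 12 chaperone genes and 7.89% of all. The longer TTCNNGAANNTTC, which contains both shorter ones, was found in Dnajb6, Hspd1, Hspe1 and Hsph1, and in 0.608% of all promoters. The ER stress element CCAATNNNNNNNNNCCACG was found in Dnajc3 and Hspa5 and in 0.120% of all promoters, and CACGTG in 7 chaperone genes and 7.17% of all. A match describes the letters only.

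The libraries held 2952 cells at 0 h, 2247 with MDSCs and 1562 with DCs alone at 24 h, and 4942 with MDSCs and 1926 with DCs alone at 72 h. Values were whole numbers already adjusted for depth, with cell totals of 13061 to 15988, so the depth is unknown and no counting error can be given. A level is a gene's adjusted sum per 1000000 of its library (CPM), and genes at a mean of 10 CPM or more over the 5 libraries were compared: 44 of the 69 chaperone genes and 6497 genes in all. A gene was called higher or lower at 1.5-fold. The 0 h library stood apart from the others, since among rare genes 26.3% of its values above 0 equalled 1, against 95.2 to 96.8% elsewhere, and for 58 genes of at least 50 CPM the variance across its cells was under 0.5 times the mean. Of those 58, 0 were chaperone genes, but chaperone genes stood apart at 0 h too. There Hspa4 was above 0 in 96.5% of cells at a mean of 1.39, and Dnajb1 in 30.0% at 0.72. Variance over mean was 0.65 for Hspa4 and 2.13 for Dnajb1 at 0 h, against 1.20 and 1.02 at 24 h with DCs alone. How far this moved the 0 h levels, and with them every ratio against 0 h, was not tested. The 0 h library is left out of any comparison of how many cells had a gene. Ribosomal protein genes took 42.2% of the values at 0 h, 31.5% with MDSCs and 36.1% with DCs alone at 24 h, and 37.4% with MDSCs and 35.5% with DCs alone at 72 h. Every CPM depends on that share. Pairs of libraries shared 7 to 18 cell barcodes. Of 8 T cell markers 7 were measured and all 7 were found in every library, with summed levels of 2258 to 6994 CPM.

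The chaperone set as a whole was fullest at 24 h. Its 69 genes summed to 7271 CPM at 0 h, 14682 CPM with MDSCs and 13564 CPM with DCs alone at 24 h, and 9991 CPM with MDSCs and 8255 CPM with DCs alone at 72 h. The 2 libraries at 24 h were thus the highest, and at 72 h the library with MDSCs stood above that with DCs alone. Within the sum, Hspa8, Hspe1 and Hspd1 together with the CCT genes made the main part in all 5 libraries.

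**Figure D1:**
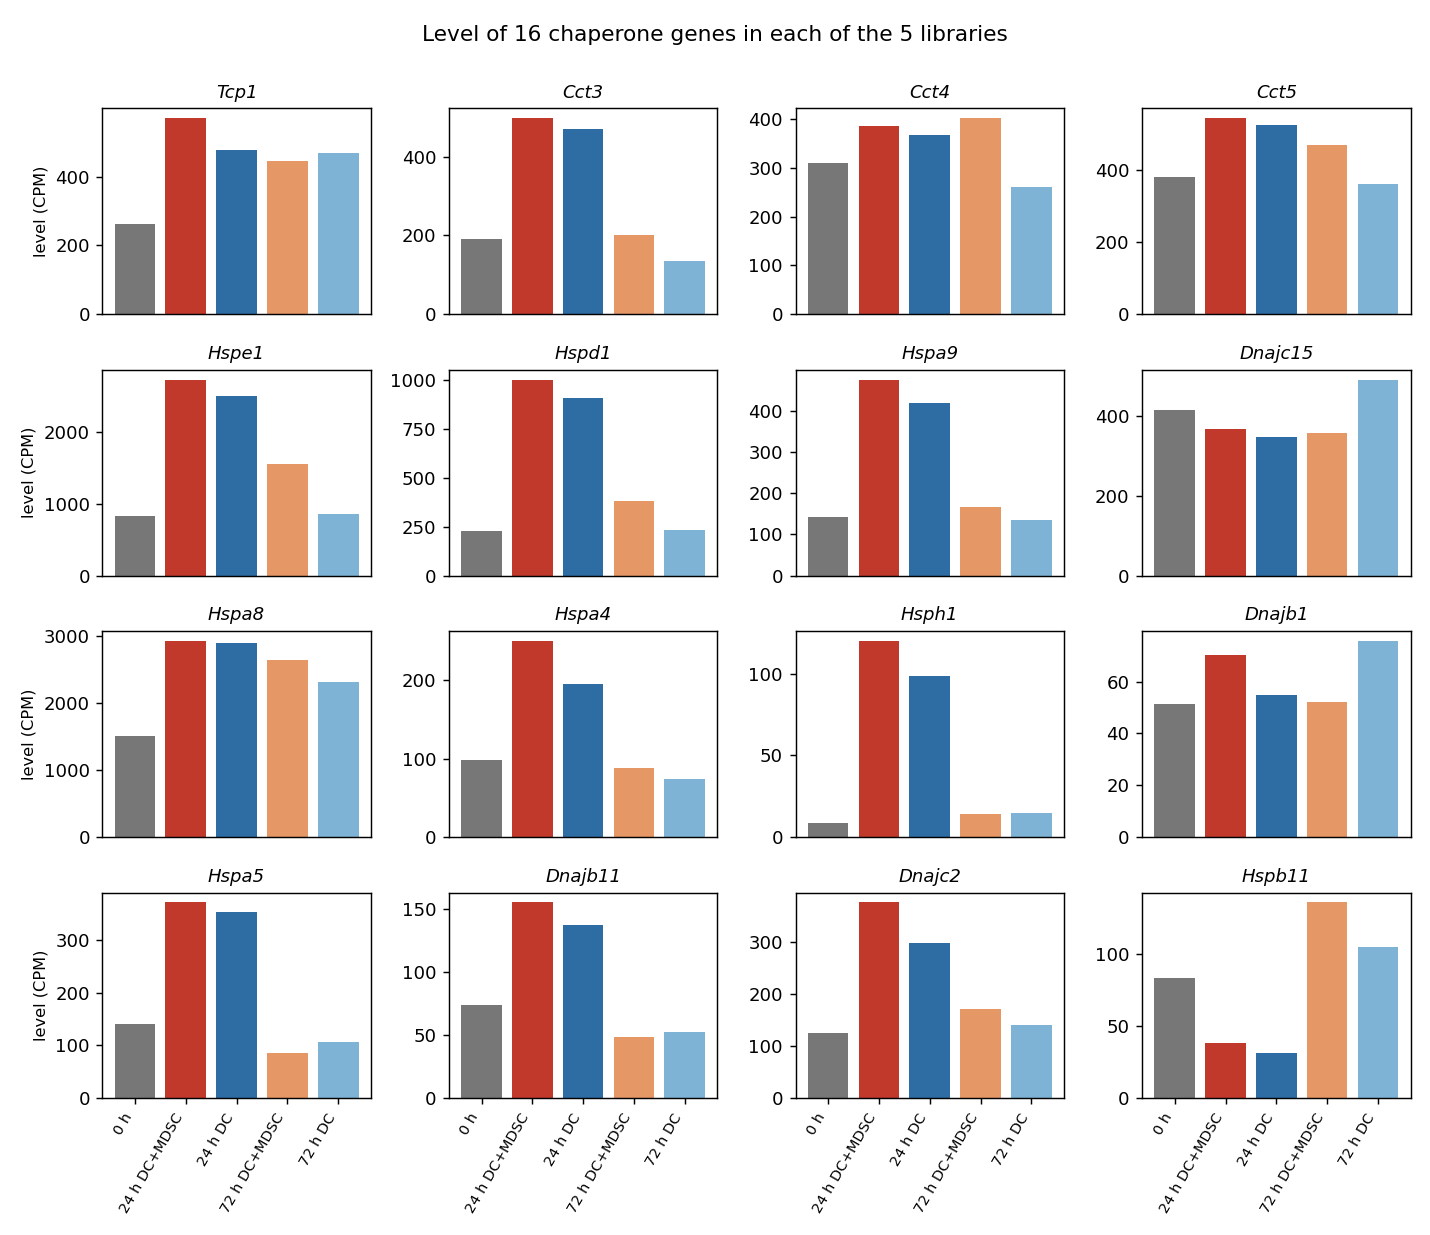
Levels (CPM, linear axes starting at 0) of 16 chaperone genes in the 5 libraries, each bar 1 library with no replicate. Most panels peak in the pair of 24 h libraries, Hspe1 at 2721 CPM with MDSCs and 2489 CPM with DCs alone, while Hspb11 is lowest there and Dnajb1 and Dnajc15 stay within a narrow range.

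The comparison of cells at 24 h with DCs alone against cells at 0 h asked how T cells differed after stimulation without MDSCs. Of the 44 chaperone genes 27 (61.4%) were higher at 24 h, where 53.6% of all genes were, and 1 (2.27%), Hspb11, was lower, against 14.6% of all genes. The median log2 ratio was 0.84 for the chaperone genes and 0.69 for all genes, so the set as a whole lay close to the general shift. The classes differed: 8 of 9 mitochondrial genes, 5 of 7 CCT genes, 4 of 5 cytosolic HSP70 and HSP110 genes, 4 of 8 ER genes and 5 of 13 cytosolic or nuclear DnaJ genes were higher. Relative to the median of all genes, 7 mitochondrial, 4 CCT, 4 HSP70 and HSP110, 4 ER and 5 DnaJ genes lay above it. With ratios centred on that median, 13 of the 44 were called higher and 8 lower in place of 27 and 1. The share of all genes called was not computed for centred ratios, here or in the comparisons below. Leaving ribosomal protein and mitochondrially encoded genes out of the total gave medians of 0.66 for the chaperone genes and 0.52 for all genes. Levels from the mean log value gave 0.91 and 0.97, so the chaperone median then lay under that of all genes. With those levels 1 of 7 CCT genes and 2 of 5 HSP70 and HSP110 genes lay above the median of all genes. The mitochondrial, ER and DnaJ counts stayed the same.

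The mitochondrial folding machine showed high ratios in this comparison. Hspe1, the HSP10 cap (chr1:55088132-55091307), was at 824 CPM at 0 h, at 2721 CPM with and 2489 CPM without MDSCs at 24 h, and at 1546 CPM with and 854 CPM without MDSCs at 72 h. Hspd1, the HSP60 barrel (chr1:55077835-55088243), was at 229 CPM at 0 h, at 1004 CPM with and 909 CPM without MDSCs at 24 h, and at 382 CPM with and 232 CPM without MDSCs at 72 h. Both genes overlap at their starts, and they were 3.02-fold and 3.97-fold higher at 24 h with DCs alone than at 0 h, which is 0.90 and 1.30 on the log2 scale beyond the median of all genes. Hspa9, the mortalin of the import motor, stood at 142 CPM at 0 h, at 475 CPM with and 418 CPM without MDSCs at 24 h, and at 167 CPM with and 135 CPM without MDSCs at 72 h. That is a log2 ratio of 1.56 at 24 h with DCs alone against 0 h. Its partner Dnajc19, a J protein of the same motor, was at 137 CPM at 0 h, at 241 CPM with and 213 CPM without MDSCs at 24 h, and at 157 CPM with and 129.6 CPM without MDSCs at 72 h.

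Several mitochondrial genes at lower levels followed the same course. Dnajc11, a protein of the cristae contact sites, had 14.6 CPM at 0 h, 65.3 CPM with and 60.2 CPM without MDSCs at 24 h, and 20.2 CPM with and 17.2 CPM without MDSCs at 72 h. Dnaja3, a J partner of mortalin, had 14.4 CPM at 0 h, 39.3 CPM with and 42.1 CPM without MDSCs at 24 h, and 25.2 CPM with and 21.6 CPM without MDSCs at 72 h. Dnajc30 had 17.2 CPM at 0 h, 36.5 CPM with and 36.6 CPM without MDSCs at 24 h, and 23.2 CPM with and 18.4 CPM without MDSCs at 72 h. For all 3 of these genes both 24 h libraries lay above every other library. Dnajc15, an inner membrane J protein known for restraining respiration in CD8+ T cells, was at 414 CPM at 0 h, at 367 CPM with and 347 CPM without MDSCs at 24 h, and at 357 CPM with and 490.4 CPM without MDSCs at 72 h. It did not follow that course: its log2 ratio at 24 h with DCs alone against 0 h was -0.26, under 1.5-fold, and its highest level was in the 72 h library with DCs alone. Dnajc4, a mitochondrial J protein, did not follow it either. It had 7.23 CPM at 0 h, 13.5 CPM with and 12.4 CPM without MDSCs at 24 h, and 22.03 CPM with and 20.7 CPM without MDSCs at 72 h, so both 72 h libraries were the highest.

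In the CCT ring the 7 subunits above the minimum differed in how far apart the libraries were. Cct3 had the widest range of them, at 192 CPM at 0 h, at 498 CPM with and 471 CPM without MDSCs at 24 h, and at 201 CPM with and 135 CPM without MDSCs at 72 h. Its log2 ratio was 1.30 at 24 h with DCs alone against 0 h. Tcp1, the alpha subunit, was at 262 CPM at 0 h, at 571 CPM with and 478 CPM without MDSCs at 24 h, and at 445 CPM with and 468 CPM without MDSCs at 72 h. Cct7 was at 293 CPM at 0 h, at 562 CPM with and 523 CPM without MDSCs at 24 h, and at 428 CPM with and 315 CPM without MDSCs at 72 h. These 3 subunits, with Cct8 and Cct2, passed 1.5-fold at 24 h with DCs alone against 0 h, but relative to the median of all genes Cct2 was lower (log2 -0.06).

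Cct8 had 232 CPM at 0 h, 384 CPM with and 383 CPM without MDSCs at 24 h, and 292 CPM with and 214 CPM without MDSCs at 72 h. Cct2 had 279 CPM at 0 h, 468 CPM with and 433 CPM without MDSCs at 24 h, and 333 CPM with and 300.2 CPM without MDSCs at 72 h. Cct5 had 379.7 CPM at 0 h, 544 CPM with and 525 CPM without MDSCs at 24 h, and 469 CPM with and 362 CPM without MDSCs at 72 h, short of 1.5-fold in each of the 5 comparisons. Cct4 was the flattest of the ring against 0 h, with 309 CPM at 0 h, 386 CPM with and 368 CPM without MDSCs at 24 h, and 402 CPM with and 259.8 CPM without MDSCs at 72 h. Subunits that the assembled ring holds in equal number thus had log2 ratios from 0.25 to 1.30 in the same pair of libraries. Cct6b, a variant subunit known from testis, had at most 2.94 CPM in any library. In the annotation Tcp1, Cct7 and Cct8 overlap other coding genes. No source used here states the strand setting of the counting. Reads of these subunits therefore cannot be told apart from those of Mrpl18 or Acat3, Pradc1 and Usp16. Other named genes, among them Dnaja1, Dnajc7, Hspa14, Dnajb6, Dnajc17 and Hspa1a, overlap coding genes too and have the same limit.

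Among the cytosolic HSP70 and HSP110 genes, the constitutive HSP70 Hspa8 (chr9:40800984-40810087) was at 1504 CPM at 0 h, at 2930.0 CPM with and 2905 CPM without MDSCs at 24 h, and at 2651 CPM with and 2322 CPM without MDSCs at 72 h. It was 1.93-fold higher at 24 h with DCs alone than at 0 h and stayed above its 0 h level in all 4 cultured libraries. Hsph1, the HSP105 exchange factor whose promoter with 2 capital runs is shown above, was at 8.44 CPM at 0 h, at 120.1 CPM with and 98.8 CPM without MDSCs at 24 h, and at 13.9 CPM with and 14.9 CPM without MDSCs at 72 h. Its ratio of 11.7-fold at 24 h with DCs alone against 0 h was the largest of the 44 genes. The variance of Hsph1 across cells was 2.00 times its mean at 0 h, against 1.07 times at 24 h with DCs alone. Hsph1 was above 0 in 82.4% of the cells with MDSCs and 77.7% with DCs alone at 24 h, but in 18.0% with MDSCs and 19.5% with DCs alone at 72 h. Hspa4, another exchange factor of the HSP110 family, was at 98.9 CPM at 0 h, at 250.3 CPM with and 195 CPM without MDSCs at 24 h, and at 87.5 CPM with and 73.5 CPM without MDSCs at 72 h.

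Hspa14, the HSP70 that joins Dnajc2 in the complex at the ribosome's exit, had 86.9 CPM at 0 h, 147 CPM with and 120.3 CPM without MDSCs at 24 h, and 74.3 CPM with and 67.6 CPM without MDSCs at 72 h. Hspa4l, a further HSP110 family gene, had 3.70 CPM at 0 h, 15.8 CPM with and 19.8 CPM without MDSCs at 24 h, and 16.7 CPM with and 21.8 CPM without MDSCs at 72 h. Unlike Hsph1, it did not return towards its 0 h level at 72 h. The stress-inducible HSP70 genes behaved otherwise. Hspa1a, whose window above holds a single GAANNTTC, was at 6.87 CPM at 0 h, at 0.58 CPM with and 0.329 CPM without MDSCs at 24 h, and at 0.226 CPM with and 0.0686 CPM without MDSCs at 72 h. Its near-identical copy Hspa1b, from which its reads may not be separable, was at most 0.750 CPM in any library. Hspa8, Hspd1 and Hspe1 have processed pseudogenes, and no source used here states how shared reads were counted. The largest ratio in the class thus belonged to Hsph1, while the heat shock HSP70 pair was near 0 in every cultured library.

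The cytosolic and nuclear DnaJ genes held members that differed widely between 24 h and 0 h and members that hardly differed between libraries. Dnajc21, whose yeast counterpart acts in maturation of the large ribosomal subunit, was at 25.5 CPM at 0 h, at 155 CPM with and 116 CPM without MDSCs at 24 h, and at 37.8 CPM with and 53.04 CPM without MDSCs at 72 h (4.54-fold higher at 24 h with DCs alone than at 0 h). Dnajc2, the ribosome-associated partner of Hspa14, was at 126 CPM at 0 h, at 376 CPM with and 298 CPM without MDSCs at 24 h, and at 171 CPM with and 140.2 CPM without MDSCs at 72 h. Dnajc24, a J protein of diphthamide synthesis, which modifies a translation factor, was at 14.3 CPM at 0 h, at 57.8 CPM with and 53.5 CPM without MDSCs at 24 h, and at 29.2 CPM with and 24.6 CPM without MDSCs at 72 h. These 3 genes linked to ribosomes and translation were, with Dnajc17 and Dnajc13, the 5 cytosolic or nuclear DnaJ genes called higher at 24 h with DCs alone against 0 h.

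Dnajc13, an endosomal J protein, had 7.50 CPM at 0 h, 16.8 CPM with and 17.5 CPM without MDSCs at 24 h, and 10.7 CPM with and 14.3 CPM without MDSCs at 72 h. The general co-chaperones of HSP70 differed less. Dnaja1 had 238 CPM at 0 h, 306 CPM with and 272 CPM without MDSCs at 24 h, and 201 CPM with and 178 CPM without MDSCs at 72 h. Dnaja2 had 154 CPM at 0 h, 219 CPM with and 193 CPM without MDSCs at 24 h, and 134 CPM with and 112 CPM without MDSCs at 72 h. Dnajb6, which holds back aggregation, was nearly level, with 139.6 CPM at 0 h, 154 CPM with and 136 CPM without MDSCs at 24 h, and 145 CPM with and 139.9 CPM without MDSCs at 72 h. The 5 libraries of Dnajb6 lay closer together than those of either general co-chaperone.

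Dnajb1, the heat-inducible HSP40, had 51.3 CPM at 0 h, 70.3 CPM with and 54.9 CPM without MDSCs at 24 h, and 52.03 CPM with and 75.6 CPM without MDSCs at 72 h. Dnajc5, the cysteine string protein of vesicle membranes, had 43.3 CPM at 0 h, 63.3 CPM with and 52.3 CPM without MDSCs at 24 h, and 40.6 CPM with and 69.6 CPM without MDSCs at 72 h. For both genes the highest library was that at 72 h with DCs alone. The lowest was at 0 h for Dnajb1 and at 72 h with MDSCs for Dnajc5. Dnajc7, which bridges HSP70 and HSP90, had 90.9 CPM at 0 h, 76.9 CPM with and 88.1 CPM without MDSCs at 24 h, and 61.96 CPM with and 67.2 CPM without MDSCs at 72 h. Dnajc8, a protein associated with splicing complexes, had 214 CPM at 0 h, 223 CPM with and 189 CPM without MDSCs at 24 h, and 249 CPM with and 188 CPM without MDSCs at 72 h. Dnajc9, a histone chaperone with a J domain, had 142 CPM at 0 h, 152 CPM with and 116 CPM without MDSCs at 24 h, and 164 CPM with and 151 CPM without MDSCs at 72 h. None of these 5 genes was 1.5-fold apart between 24 h with DCs alone and 0 h.

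In the ER, Hspa5 (BiP, chr2:34771970-34777547), whose promoter holds the full ER stress element shown above, was at 141 CPM at 0 h, at 370.2 CPM with and 352 CPM without MDSCs at 24 h, and at 85.6 CPM with and 107 CPM without MDSCs at 72 h. Dnajb11, a soluble J partner of BiP, was at 74.2 CPM at 0 h, at 155 CPM with and 137 CPM without MDSCs at 24 h, and at 48.4 CPM with and 52.7 CPM without MDSCs at 72 h. Dnajc3, the J protein known as an inhibitor of the kinase PERK, was at 73.9 CPM at 0 h, at 78.9 CPM with and 82.01 CPM without MDSCs at 24 h, and at 54.6 CPM with and 63.6 CPM without MDSCs at 72 h. The promoters of Hspa5 and Dnajc3 both hold the element. At 24 h with DCs alone against 0 h the log2 ratio was 1.32 for Hspa5 and 0.15 for Dnajc3. A part of the element in these ratios was not tested. Dnajc25 had 3.44 CPM at 0 h, 22.3 CPM with and 19.998 CPM without MDSCs at 24 h, and 3.80 CPM with and 5.73 CPM without MDSCs at 72 h. Dnajc18 was with it, Hspa5 and Dnajb11 among the 4 ER genes called higher at 24 h. The other 3 ER genes above the minimum, Dnajc1, Dnajc10 and Dnajc14, had log2 ratios of 0.03 to 0.52.

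Of the other genes above the minimum, which matched by symbol only, Hspb11 was lower and Hspbp1 higher at 24 h than at 0 h. Hspb11 was at 82.9 CPM at 0 h, at 38.04 CPM with and 31.5 CPM without MDSCs at 24 h, and at 135 CPM with and 105 CPM without MDSCs at 72 h. This makes it the single gene of the set called lower at 24 h with DCs alone than at 0 h (2.63-fold). Hspbp1, the HSP70 exchange factor, was at 44.5 CPM at 0 h, at 91.8 CPM with and 81.9 CPM without MDSCs at 24 h, and at 68.8 CPM with and 53.3 CPM without MDSCs at 72 h.

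**Figure D2:**
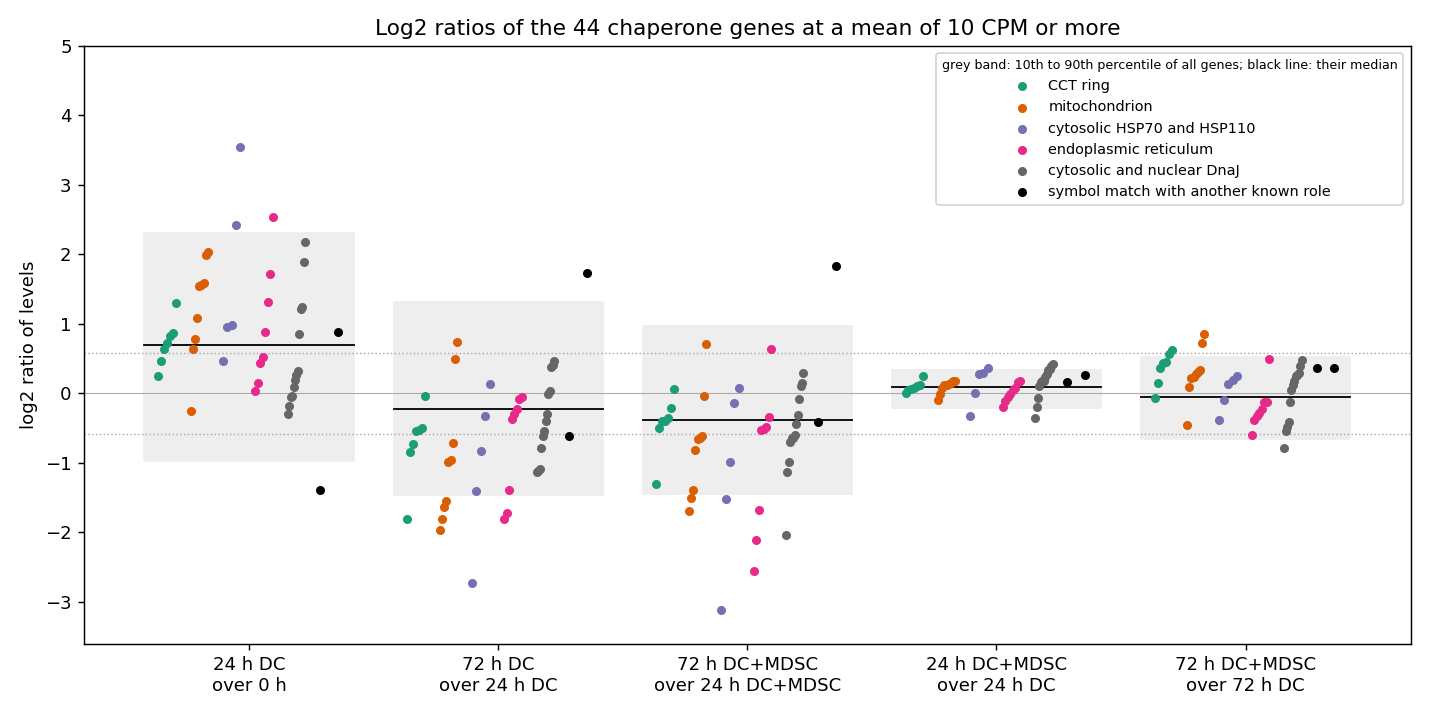
Log2 ratios of levels for the 44 chaperone genes (points, coloured by class) in the 5 comparisons, with the 10th to 90th percentile of all 6497 genes as a grey band, their median as a black line and 1.5-fold as dotted lines. Of the 9 mitochondrial points 8 lie beyond the upper dotted line at 24 h over 0 h and 7 beyond the lower one at 72 h over 24 h in each culture, and the points of 24 h with MDSCs over DCs alone all lie within the dotted lines.

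The comparisons of 72 h with 24 h asked how the same culture differed later on. With DCs alone, 2 of the 44 genes (4.55%; Hspb11 and Dnajc4) were higher at 72 h, against 21.5% of all genes, and 22 were lower, against 33.8%. The median log2 ratio was -0.58 for the chaperone genes and -0.23 for all genes. With ratios centred on the median of all genes 6 were higher and 17 lower. With MDSCs, 3 genes (6.82%) were higher at 72 h than at 24 h, against 16.1% of all genes, and 21 (47.7%) were lower, against 40.6%, at medians of -0.52 and -0.38. Centred ratios gave 4 higher and 13 lower. With ribosomal protein and mitochondrially encoded genes out of the total, 31.8% of the chaperone genes were lower at 72 h than at 24 h with MDSCs, against 34.4% of all genes.

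Among the genes lower at 72 h in both cultures were Hsph1, Hspd1, Cct3, Hspa5 and Hspe1. At 72 h against 24 h with DCs alone, Hsph1 was 6.62-fold lower, Hspd1 3.92-fold, Cct3 3.49-fold, Hspa5 3.30-fold and Hspe1 2.91-fold. With MDSCs, in the same order of genes, the ratios were 8.63-fold, 2.63-fold, 2.48-fold, 4.33-fold and 1.76-fold lower. By class, 7 of 9 mitochondrial genes were lower with MDSCs and 7 of 9 with DCs alone, and of the 7 CCT genes 1 was lower with MDSCs and 3 with DCs alone. Of the 8 ER genes 3 were lower in each culture, a share near that of all genes. Tcp1 and Hspa8 did not pass 1.5-fold in either culture, with Tcp1 log2 ratios of -0.36 with MDSCs and -0.03 with DCs alone, and those of Hspa8 at -0.14 with MDSCs and -0.32 with DCs alone. Hspb11 was 3.56-fold higher with MDSCs and 3.32-fold higher with DCs alone. Mitochondrial Dnajc4 was higher too, with log2 ratios of 0.71 with MDSCs and 0.74 with DCs alone.

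The MDSC comparison at 24 h asked whether T cells cultured with MDSCs differed after the first day. Of the 44 chaperone genes 0 were 1.5-fold higher, against 2.54% of all genes, and 0 were 1.5-fold lower, against 1.54%. The ratios spanned -0.36 to 0.42 on the log2 scale, with a median of 0.12 for the chaperone genes and 0.10 for all genes. At the upper end were Dnajc21 at 155.0 CPM with MDSCs against 115.8 CPM with DCs alone, Dnajc9 at 152.0 against 115.8 CPM, and Hspa4 at 250.3 against 194.8 CPM. Dnajc17 at 15.9 CPM with MDSCs against 20.4 CPM with DCs alone and Hspa4l at 15.8 against 19.8 CPM were at the lower end. Genes of S, G2 and M phase did differ between these libraries, with 24 of 40 higher and 0 lower with MDSCs. In tertiles of cells ranked by those genes, 0 chaperone genes passed 1.5-fold upwards and 1 downwards, in the lowest tertile. The share of all genes called in each tertile was not computed.

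The MDSC comparison at 72 h asked the same of the later culture. Of the 44 genes 3 (6.82%) were 1.5-fold higher with MDSCs, against 7.90% of all genes, and 2 (4.55%) were lower, against 12.7%. The share of called genes was therefore no larger than the background, and the median log2 ratio was 0.18 for the chaperone genes against -0.06 for all genes. The higher genes were Hspe1 at 1546 CPM with MDSCs against 854 CPM with DCs alone (1.81-fold), Hspd1 at 382 against 232 CPM (1.65-fold) and Cct4 at 402 against 259.8 CPM (1.55-fold). With centred ratios, or with ribosomal protein and mitochondrially encoded genes out of the total, 4 were higher and 1 lower. With that smaller total 9.65% of all genes were higher and 10.8% lower. The lower genes were Dnajc5 at 40.6 CPM with MDSCs against 69.6 CPM with DCs alone (1.72-fold) and Dnajc25 at 3.80 against 5.73 CPM (1.51-fold).

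At 2-fold, 16 of the 44 genes were higher and 1 lower at 24 h with DCs alone against 0 h, where 39.3% and 9.79% of all genes were. At 72 h against 24 h, 1 was higher and 11 lower with MDSCs (9.82% and 23.3% of all genes), and 1 was higher and 13 lower with DCs alone (13.8% and 19.6%). With MDSCs against DCs alone 0 genes passed 2-fold in either direction, at 72 h (1.60% of all genes higher and 4.22% lower) or at 24 h (0.677% and 0.431%).

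At 72 h with MDSCs against DCs alone the classes leaned in different directions, none with a median past 1.5-fold. The class medians and counts include the genes called at 72 h. In the CCT ring the median log2 ratio was 0.44, and 6 of 7 subunits lay above the median of all genes. Cct3 was at 201.0 CPM with MDSCs against 135 CPM with DCs alone, just short of 1.5-fold, Cct8 at 292 against 214 CPM and Cct7 at 428 against 315 CPM, while Tcp1 was at 445 against 468 CPM. Of the mitochondrial genes 8 of 9 lay above the median of all genes, with Hspa9 at 167 CPM with MDSCs against 135 CPM with DCs alone and a class median of 0.28. The exception was Dnajc15, at 357 CPM with MDSCs against 490.4 CPM with DCs alone (log2 -0.46). In the ER 1 of 8 genes lay above the median of all genes and the class median was -0.25, with Hspa5 at 85.6 CPM with MDSCs against 106.7 CPM with DCs alone (log2 -0.32) and Dnajb11 at 48.4 against 52.7 CPM. In the lowest tertile of cells by cell cycle genes both changed sign, to log2 0.19 for Hspa5 and 0.33 for Dnajb11, and 3 of 8 ER genes lay above the median of all genes. Without cells with 2 or more markers of other cells, which left 48 cells with DCs alone, the mitochondrial class median was 0.01. The median of all genes was then -0.11, and 7 of 9 mitochondrial genes lay above it. The cytosolic HSP70 and HSP110 class had a median of 0.14, with 3 of 5 genes above the median of all genes. For the cytosolic or nuclear DnaJ class the median was 0.12, with 8 of 13 above it. Among the DnaJ genes lower with MDSCs, Dnajb1 was at 52.0 CPM with MDSCs against 75.6 CPM with DCs alone, and Dnajc21 at 37.8 against 53.0 CPM.

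**Figure D3:**
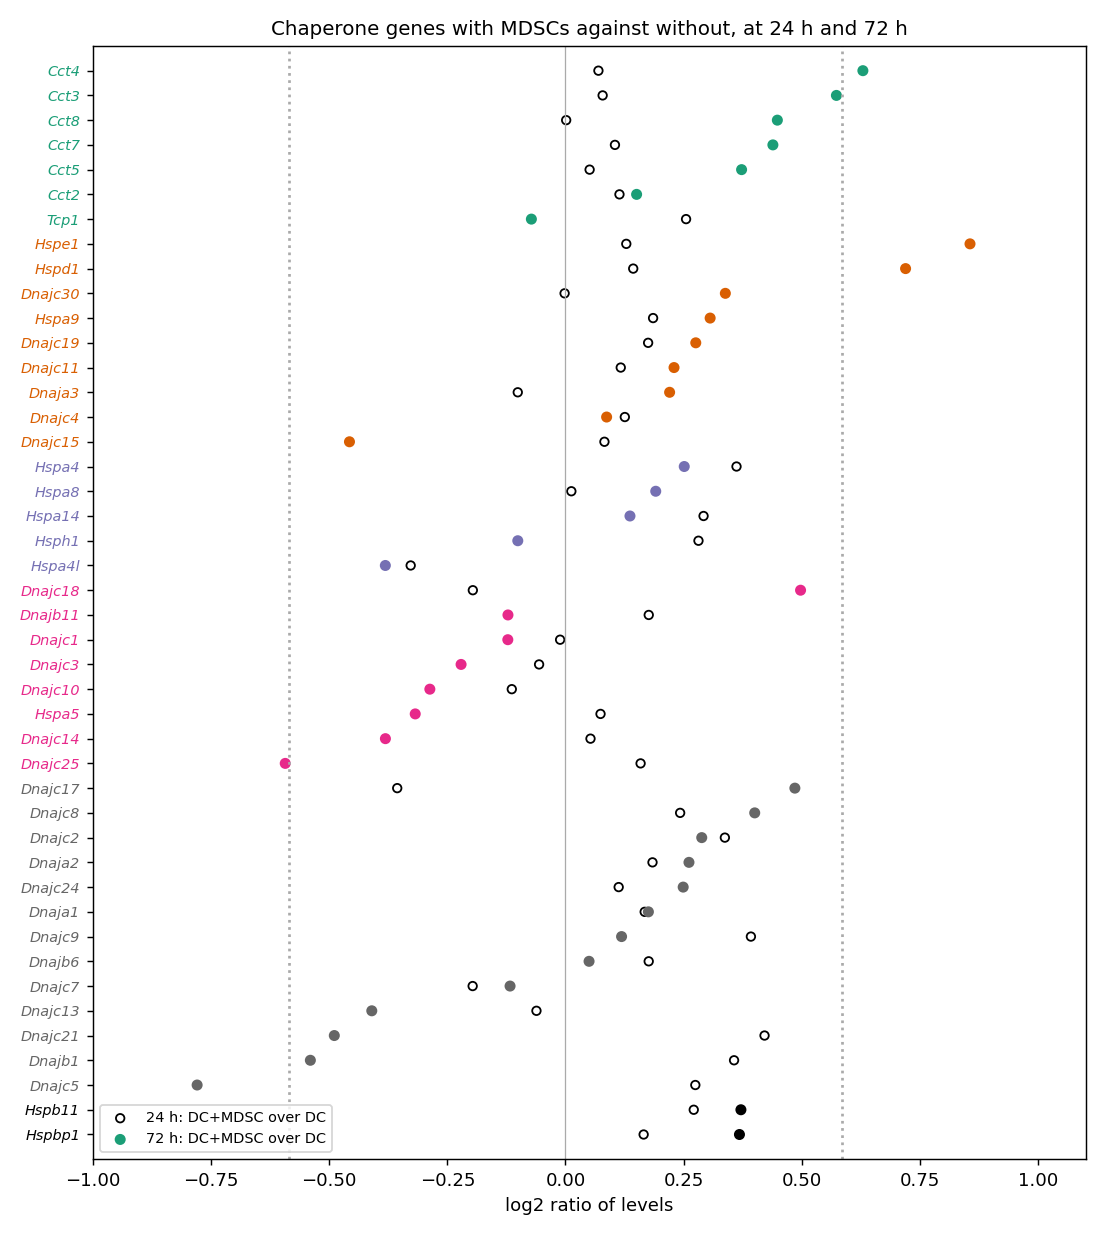
Log2 ratios of levels, DCs with MDSCs over DCs alone, for each of the 44 chaperone genes at 72 h (filled, coloured by class) and 24 h (open), with 1.5-fold as dotted lines. Hspe1, Hspd1 and Cct4 lie beyond the upper line at 72 h, Dnajc5 and Dnajc25 beyond the lower, and every 24 h point lies between the lines.

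Across the processing alternatives the log2 ratio at 72 h ranged from 0.69 to 0.91 for Hspe1, from 0.53 to 0.88 for Hspd1, from 0.49 to 0.74 for Cct4, from -0.83 to -0.68 for Dnajc5 and from -0.96 to -0.07 for Dnajc25. Hspe1 and Dnajc5 passed 1.5-fold in all of them, whereas Hspd1, Cct4 and Dnajc25 did not. Transcripts of other cells also differed between the 72 h libraries. Granulocyte and monocyte transcripts (S100a8, S100a9, Lyz2 or Ngp) were above 0 in 91 cells (1.84%) with MDSCs and in 1 cell with DCs alone, and in 172 cells (7.65%) with MDSCs and 0 cells with DCs alone at 24 h. Without those cells the counts at 72 h were again 3 higher and 2 lower. Leaving out cells with 2 or more myeloid, dendritic or B cell markers, which kept 677 cells with MDSCs and 48 with DCs alone, gave 1 higher and 5 lower. In tertiles of cells ranked by genes of S, G2 and M phase, the lowest gave 10 higher, the middle 1 higher and 4 lower, and the highest 5 higher. For the marker rules and the tertiles the share of all genes called was not computed, so these counts have no background. Over the 12 measured of 16 myeloid markers the summed level was 207 CPM with MDSCs against 205 CPM with DCs alone at 72 h, where S100a8, S100a9 and Ngp were at 0 with DCs alone. Over the 9 measured of 13 dendritic cell markers it was 181.0 CPM with MDSCs against 544 CPM with DCs alone at 72 h and 328 against 539 CPM at 24 h. Their part in the chaperone ratios was not tested. Measured markers of other cells summed to at most 27.5 CPM for B cells (2 genes), 182 CPM for NK cells (3 genes), 5.66 CPM for CD4 T cells (2 genes) and 0.895 CPM for erythroid cells (3 genes).

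The partners of these chaperones were taken from lists of known genes. Of 27 genes of HSP90 and its co-chaperones above the minimum, 20 (74.1%) were higher and 2 lower at 24 h with DCs alone against 0 h (median log2 ratio 1.16), where 53.6% of all genes were higher. At 72 h against 24 h with MDSCs, 1 was higher and 19 lower (16.1% and 40.6% of all genes). With DCs alone 2 were higher and 19 lower (21.5% and 33.8%). Hsp90aa1, the inducible HSP90, was at 404 CPM at 0 h, at 1911 CPM with and 1573 CPM without MDSCs at 24 h, and at 1142 CPM with and 939 CPM without MDSCs at 72 h. Hsp90ab1, the constitutive form, was at 1179 CPM at 0 h, at 4062 CPM with and 4094 CPM without MDSCs at 24 h, and at 2706 CPM with and 2824 CPM without MDSCs at 72 h. Bag2, an HSP70 exchange factor, had the largest ratio of this list at 24 h with DCs alone against 0 h (41.2 against 2.30 CPM). With MDSCs against DCs alone, 0 genes passed at 24 h, where 2.54% of all genes were higher and 1.54% lower. At 72 h 4 (14.8%) were higher and 0 lower, against 7.90% and 12.7% of all genes. In front were the cyclophilin Ppid at 88.9 CPM with MDSCs against 44.7 CPM with DCs alone and Cacybp at 209.7 against 114 CPM.

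Of 21 genes of prefoldin, which hands actin and tubulin to CCT, and of the clients and their cofactors, 7 (33.3%) were higher and 2 lower at 24 h with DCs alone against 0 h, a smaller share than the 53.6% of all genes. The tubulin gene Tuba1b (log2 1.30) and Tuba1a (-1.41) marked the ends, though closely related tubulin genes can share reads. With MDSCs against DCs alone at 72 h, 1 was higher, the prefoldin subunit Pfdn2 at 162 against 96.5 CPM, and 1 lower, Tuba1a at 115 against 203 CPM. Of all genes 7.90% were higher and 12.7% lower in that comparison. Of 19 genes of mitochondrial import and protein quality control, 16 (84.2%) were higher and 0 lower at 24 h with DCs alone against 0 h (median 1.42), led by the protease gene Htra2 (log2 3.05) and Lonp1 (2.45). With MDSCs against DCs alone at 72 h, 3 of the 19 (15.8%) were higher and 2 (10.5%) lower, against the 7.90% and 12.7% of all genes. Htra2 was at 54.5 against 24.997 CPM and the protease subunit Clpp at 80.98 against 47.9 CPM. The protease gene Lonp1 was at 34.5 CPM with MDSCs against 83.3 CPM with DCs alone, and Afg3l2 at 24.9 against 70.4 CPM. The proteases of the mitochondrion thus lay on both sides while Hspe1 and Hspd1 were higher.

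Of 26 genes of ER folding and the unfolded protein response, 14 (53.8%) were higher and 0 lower at 24 h with DCs alone against 0 h (median 0.70). This share and median lay at those of all genes, 53.6% and 0.69, with Creld2 (log2 2.63) and the transcription factor gene Xbp1 (1.93) in front. At 72 h with MDSCs against DCs alone, 0 were higher and 2 (7.69%) lower, against 12.7% of all genes (median -0.21). Ero1l, the ER oxidase, was at 18.97 CPM at 0 h, at 69.1 CPM with and 53.8 CPM without MDSCs at 24 h, and at 38.2 CPM with and 349 CPM without MDSCs at 72 h. P4hb, a protein disulfide isomerase, was at 81.04 CPM at 0 h, at 133 CPM with and 98.1 CPM without MDSCs at 24 h, and at 67.7 CPM with and 186 CPM without MDSCs at 72 h. Both peaked at 72 h with DCs alone, where Hspa5 and Dnajb11 were below their levels at 24 h. Of 15 genes of the HSF1 list, which holds several chaperone genes of the set itself, 12 were higher and 0 lower at 24 h with DCs alone against 0 h, and 5 were higher and 0 lower at 72 h with MDSCs against DCs alone. Of 32 ribosome biogenesis genes, 32 were higher at 24 h with DCs alone against 0 h (median 1.69), and 15 were higher and 0 lower at 72 h with MDSCs against DCs alone (median 0.57). Of all genes 53.6% were higher and 14.6% lower in the former comparison, and 7.90% and 12.7% in the latter. At 72 h against 24 h with MDSCs, 3 genes were higher and 5 lower in the prefoldin list, 1 and 12 in the mitochondrial list, 3 and 14 in the ER list, 1 and 12 in the HSF1 list and 0 and 31 in the ribosome biogenesis list. With DCs alone the counts were 4 and 5, 3 and 12, 5 and 8, 0 and 11, and 0 and 32 in that order of lists. Of all genes 16.1% were higher and 40.6% lower at 72 h against 24 h with MDSCs, and 21.5% and 33.8% with DCs alone. With DCs alone the ER list, at 19.2% higher and 30.8% lower, lay near the share of all genes. At 24 h with MDSCs against DCs alone, 0 genes of these 5 lists passed in either direction, where 2.54% of all genes were higher and 1.54% lower.

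The values per cell are the parts of the library levels above, so they describe the spread across cells and add no separate support. The summed adjusted value of Hspd1, Hspe1 and Hspa9 had a median per cell of 16 at 0 h (10th to 90th percentile 11 to 23), 65 (50.6 to 79) with MDSCs and 60 (42 to 76) with DCs alone at 24 h, and 31 (21 to 44) with MDSCs and 18 (11 to 27) with DCs alone at 72 h. At 72 h the 25th percentile with MDSCs, 26, lay above the 75th percentile with DCs alone, 22. Hspd1 and Hspe1 were called higher with MDSCs at 72 h in these same data. Dnajc15, a mitochondrial gene at a lower level with MDSCs there, is not part of the sum. The CCT sum had medians of 27 at 0 h, 51 with MDSCs and 48 with DCs alone at 24 h, and 38 with MDSCs and 30 with DCs alone at 72 h, with overlapping boxes. Hspa5, Dnajb11 and Dnajc3 together had medians of 3 at 0 h, 9 with MDSCs and 8 with DCs alone at 24 h, and 2 with MDSCs and 3 with DCs alone at 72 h.

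**Figure D4:**
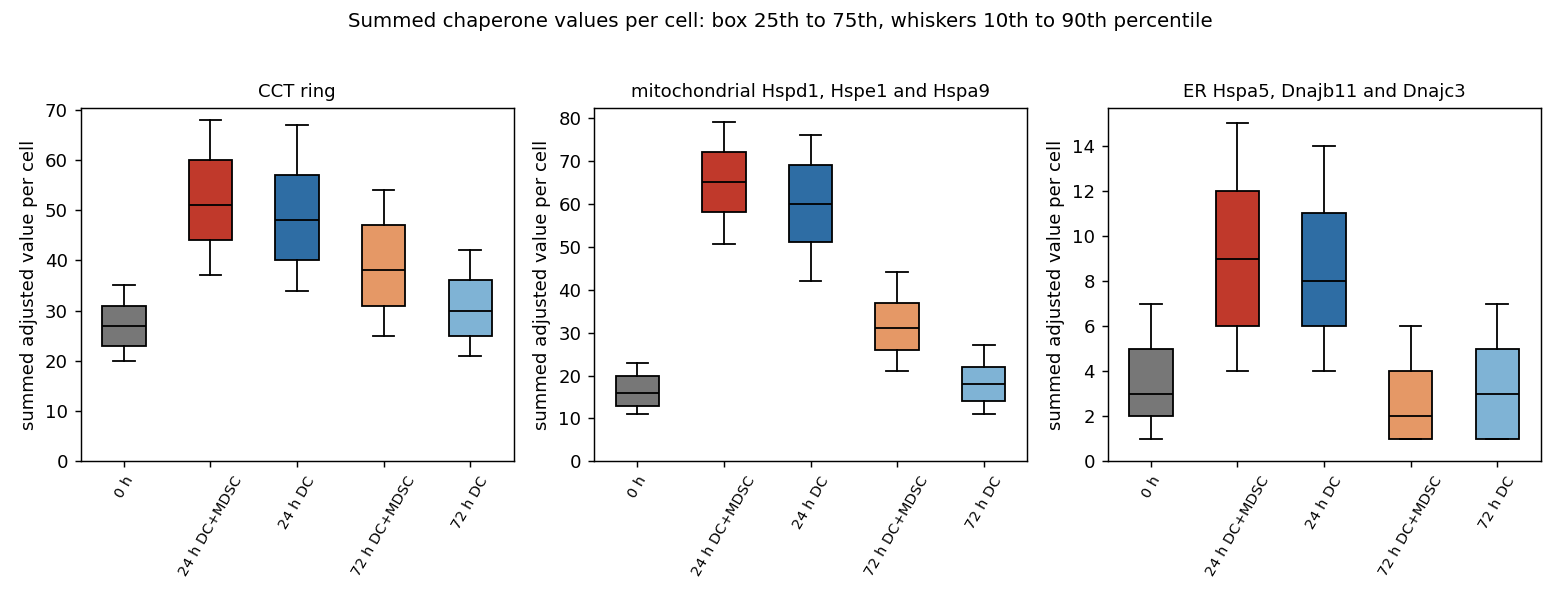
Summed adjusted value per cell of the CCT genes, of mitochondrial Hspd1, Hspe1 and Hspa9, and of ER Hspa5, Dnajb11 and Dnajc3 in the 5 libraries (box 25th to 75th percentile with the median, whiskers 10th to 90th percentile, cells of 1 library per box). At 72 h the mitochondrial box with MDSCs (26 to 37) lies above that with DCs alone (14 to 22), while the CCT boxes overlap. The mitochondrial sum holds Hspd1 and Hspe1, which were called higher with MDSCs at 72 h in these same data.

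Across the cells of each library, the mitochondrial sum went with the sum of ribosome biogenesis genes, with Spearman's rho of 0.17 at 0 h (2952 cells), 0.30 with MDSCs (2247 cells) and 0.54 with DCs alone (1562 cells) at 24 h, and 0.51 with MDSCs (4942 cells) and 0.54 with DCs alone (1926 cells) at 72 h. For the CCT sum rho was 0.18 at 0 h, 0.31 with MDSCs and 0.45 with DCs alone at 24 h, and 0.35 with MDSCs and 0.46 with DCs alone at 72 h. Between the CCT sum and the genes of S, G2 and M phase rho lay between -0.23 and 0.24, and between the mitochondrial sum and those genes from -0.18 at 72 h to 0.40 at 24 h, both with DCs alone. The cells of a library share their preparation and a fixed total, which ties all values of a cell together, so these are descriptions.

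The 25 chaperone genes under the minimum had at most 12.4 CPM in any library. Among them were the 4 small heat shock genes, with Hspb1 at most 0.453 CPM, and the ER stress gene Dnajb9 at most 9.14 CPM. Hspa1a was above 0 in 98 of 2952 cells at 0 h (3.32%), a share that is not set against the later libraries. In the 98 cells of 0 h Hsph1 averaged 0.0612 per cell against 0.120 in the other 2854, and Dnajb1 0.673 against 0.720. Of the immediate early genes Fos averaged 2.76 against 2.24 and Jun 2.01 against 1.60, but Junb, at 5.44 against 5.48, and Dusp1, at 0.245 against 0.236, hardly differed. Over the list of immediate early genes the summed level was 1646 CPM at 0 h, 1110 CPM with MDSCs and 1006 CPM with DCs alone at 24 h, and 530.0 CPM with MDSCs and 886 CPM with DCs alone at 72 h. Their part in the chaperone levels was not tested.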

How the data were processed

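Single-cell RNA of 5 libraries was made on the 10x Genomics platform, per the labels' protocols. The submitters' processing notes list Cell Ranger 2.0.1, Seurat and the build mm10 without saying what each was used for. The 3 tables deposited by the authors, of all time points, of 24 h and of 72 h, give each gene and cell the natural log of a whole number plus 1. The exponential minus 1 was within 1e-06 of a whole number for every value. No source used here says how the whole numbers were adjusted. Their totals per cell had a coefficient of variation of 4.95%, so they are not molecule counts, and no count model, counting interval or thinning was applied. Doublets were not called. The library of each cell came from the deposited cell annotation. That annotation held no cell types, and no clustering was done here.

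The whole numbers of the table of all time points were summed per gene and library and scaled to 1000000. Log2 ratios of these levels were taken in 5 comparisons, with no test and no p-value because each group was 1 library. Genes were called at 1.5-fold, at a mean of 10 CPM or more over the 5 libraries. The members, gene lists, markers and alternatives were chosen with earlier results of these data known. Named members were all CCT genes, those at a mean of 50 CPM or more, and those 2-fold apart in a comparison. Named partner genes were those of largest ratio per list at 20 CPM or more, plus Hsp90aa1, Hsp90ab1 and the genes set beside Hspa1a, which were chosen after their values were seen. Dnajc4, Dnajc17, Dnajc18, Dnajc1, Dnajc10, Dnajc14, Hspb1 and Dnajb9 are named although they fall outside the rule. The calculation of the calls was checked on simulated Poisson values in which 200 genes were changed by known folds above 1.5-fold. No variation between libraries was simulated, so this says nothing about how far 1.5-fold calls between single libraries hold. Gene positions are from GENCODE M21, on the mm10 assembly, where all 69 members were found. Promoters and their build are from RefSeq. Software was Python 3.11.15, numpy 2.4.6, scipy 1.17.1, pandas 2.3.3 and matplotlib 3.10.9.

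Alternatives were equal weight per cell, centring on the median of all genes, a total that leaves out ribosomal protein and mitochondrially encoded genes, levels from the mean natural log value, minimum levels of 5 or 50 CPM or none, a pseudocount of 1 CPM, 2-fold calls, leaving out cells with other cells' markers, leaving out genes of low variance at 0 h, the separate tables of 24 h and 72 h, and tertiles of cells by cell cycle genes. A minimum taken over the 4 later libraries and leaving out cells with S100a8, S100a9, Lyz2 or Ngp were chosen after seeing the data.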

Additional observations from a re-analysis of the deposited data

Results flagged for a closer look

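For 6 chaperone genes the log2 ratio with MDSCs over DCs alone had opposite signs at 72 h and 24 h and the ratios lay at least 1.5-fold apart. The difference was not tested, since each group was 1 library. The ratio at 72 h minus that at 24 h was -1.05 for Dnajc5 (-0.78 at 72 h and 0.27 at 24 h), -0.91 for Dnajc21 (-0.49 and 0.42), -0.90 for Dnajb1 (-0.54 and 0.36) and -0.75 for Dnajc25 (-0.59 and 0.16). It was 0.84 for Dnajc17 (0.49 at 72 h and -0.36 at 24 h) and 0.69 for Dnajc18 (0.50 and -0.20). The same count was not computed over all genes, so these 6 have no background. All 6 are DnaJ genes, and 3 of them (Dnajc25, Dnajc17 and Dnajc18) stayed under 25 CPM in every library. DnaJ genes are also a large part of the 44 compared. The cytosolic or nuclear class alone holds 13 of them, and the ER and mitochondrial classes hold more.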

How the results depend on the processing

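Of 1676 log2 ratios of named members recomputed under the alternatives, 1558 kept their side of 1.5-fold and moved by less than 1.5-fold, 116 did not, and 2 that were past 1.5-fold changed sign: centred on the median of all genes, the ratio at 24 h with DCs alone over 0 h was -0.0595 for Cct2 and -0.0571 for Dnajc19. Of the ratios under 1.5-fold, 73, of 30 genes, also changed sign, 8 of them when that comparison was centred, with Cct4 at -0.45, Cct5 at -0.23 and Dnaja1 at -0.50. With MDSCs over DCs alone at 72 h, 3 did so in the lowest cell cycle tertile, where Hsph1 was at 0.72, and 5 without cells with other cells' markers. The counts below are of chaperone genes only, with no share of all genes beside them. They moved by over 1.5 times, and the cause was not tested. For 24 h with DCs alone over 0 h (27 higher, 1 lower), centring gave 13 higher and 8 lower, a minimum of 50 CPM 17 higher, 2-fold calls 16 higher, no minimum 5 lower, and leaving out cells with other cells' markers 0 lower. For 72 h over 24 h with MDSCs (3 higher, 21 lower), a minimum of 50 CPM gave 1 higher, no minimum 11 higher, 2-fold calls 1 higher and 11 lower, and centring 13 lower. For 72 h over 24 h with DCs alone (2 higher, 22 lower), centring gave 6 higher, a minimum of 50 CPM 1 higher, no minimum 7 higher, and 2-fold calls 1 higher and 13 lower. For MDSCs over DCs alone at 24 h (0 and 0), no minimum gave 2 higher and 2 lower, and the lowest cell cycle tertile 1 lower. For MDSCs over DCs alone at 72 h (3 higher, 2 lower), no minimum gave 7 higher and 4 lower, and 2-fold calls 0 higher and 0 lower. There the lowest tertile gave 10 higher, the middle tertile 1 higher and 4 lower, and the highest tertile 5 higher. Leaving out cells with other cells' markers gave 1 higher and 5 lower, and centring, a minimum of 50 CPM, a pseudocount of 1 CPM and a total that leaves out ribosomal protein and mitochondrially encoded genes each gave 1 lower. That marker rule also removes T cells with class II transcripts and left 31 cells at 0 h, 406 with MDSCs and 402 with DCs alone at 24 h, and 677 with MDSCs and 48 with DCs alone at 72 h. Leaving out only cells with S100a8, S100a9, Lyz2 or Ngp moved no count by over 1.5 times. No replicate could be left out because each group was 1 library. No paired analysis was possible because the groups share no replicates beyond 1 library each and no test was run. Depth is unknown, so what it limits cannot be given.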
